A study of Mus musculus with 30 samples.

Results

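The regulators of epithelial-mesenchymal transition were taken by gene symbol as 10 genes of the 48440 in the count table. They are the transcription factors Snai1, Snai2, Twist1, Twist2, Zeb1, Zeb2 and Prrx1 of the mesenchymal state, the transcription factors Grhl2 and Ovol1 of the epithelial state, and the epithelial splicing factor Esrp1. Of these 10 genes, 8 passed the filter on low counts, as did 16862 genes in all, and Ovol1 and Esrp1 did not. RNA-seq had been performed on 30 tumors grown in C57BL/6 mice from 5 fibrosarcoma lines, each derived from a primary tumor induced by the carcinogen 3-methylcholanthrene (MCA). The study compared lines whose growth in mice depended on NK1.1+ cells (sensitive) with lines whose growth did not (non-sensitive). The non-sensitive lines were MCA-943 (n = 4), with the strain label Ncr1Cre, and MCA-969 (n = 8), with the strain label Ncr1Cre R26DTA. The sensitive lines were MCA-948 (n = 8), MCA-970 (n = 6) and MCA-972 (n = 4), all with the strain label Ncr1Cre R26DTA. In mice of that genotype, cells that express NKp46 make diphtheria toxin and die, so they lack NK cells and other NKp46+ innate lymphoid cells. The labels do not say which mouse the strain refers to. The paper transplanted its lines into C57BL/6 mice and sorted them by the genotype of the mouse given MCA. The strain label is therefore read here as that of the mouse in which the primary tumor arose. The tumors W-1D and W-2D of MCA-969 carry the label of the opposite sensitivity and were kept with their line. Each line is a single primary line, so a difference between lines cannot be told apart from a difference between their sensitivity classes or strain labels.

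During epithelial-mesenchymal transition, epithelial cells lose their junctions and keratins and gain a fibroblast-like, motile state. Factors of the Snail and Zeb families bind E-boxes in the promoters of epithelial genes and repress them, and Twist factors and Prrx1 promote the mesenchymal programs of development. Grhl2 and Ovol1 hold cells in the epithelial state and oppose Zeb1, while Esrp1 sets the splicing pattern of epithelial transcripts. Sarcomas arise from mesenchymal cells, in which the mesenchymal factors are part of the normal identity.

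The tumors held between 27745104 and 46537062 counts assigned to genes. The fibroblast identity of the samples was in the data, since all 12 fibroblast markers reached 1 CPM in every line, with summed levels from 15569 CPM in an MCA-948 tumor to 91951 CPM in an MCA-943 tumor. CPM is the count of a gene divided by the library total in units of 1e6 counts, scaled between libraries by the trimmed mean of M-values. Leukocyte markers were low but present, with a sum of 32.3 to 497 CPM over 20 markers, as were the 10 endothelial markers, with a sum of 28.9 to 585 CPM. The median endothelial sum was 553 CPM in MCA-970 and 87.3 to 196 CPM in the other lines. Of the 14 keratinocyte markers, 2 to 4 reached 1 CPM in a line, and Krt5, a keratin of basal keratinocytes, did not exceed 2.80 CPM in any tumor. That maximum and the highest Krt14, another basal keratin, at 3.01 CPM, were both in MCA-969 a-1D, with 107 and 115 counts, and the keratinocyte score of this tumor (0.000264) was apart from those of the other 7 MCA-969 tumors (-1.61 to -1.43). In bulk RNA, fewer cells of a type and less RNA per cell cannot be told apart. The sample descriptions carry sample numbers in 3 runs, and the lines are split unevenly between them: 6 tumors of MCA-969 and all of MCA-972 are in the first, 2 of MCA-948, 2 of MCA-969 and all of MCA-970 in the second, and 6 of MCA-948 and all of MCA-943 in the third. What the runs stand for is not given in the labels. The 2 MCA-969 tumors of the second run are W-1D and W-2D, which carry the opposite sensitivity label. In MCA-969 the run can therefore not be told apart from these tumors or their label.

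All 7 mesenchymal factors were expressed in all 30 tumors, and the 3 epithelial factors were at or near 0. On a scale of CPM per kilobase of counted gene length, which allows genes to be compared, Prrx1 and Twist1 had the highest means over the tumors, at 52.5 and 46.7. Snai1 followed at 33.1, Twist2 at 23.04, Zeb1 at 15.2, Snai2 at 12.6 and Zeb2 at 5.93 CPM per kilobase. All 7 levels were above the median of 3.65 CPM per kilobase over the genes that passed the filter, and 94.4% of those genes were lower than Prrx1. On the same scale, Grhl2 averaged 0.0335, Ovol1 0.00955 and Esrp1 0.000577 CPM per kilobase. The lowest tumor for a mesenchymal factor, 2.53 CPM per kilobase for Zeb2, was above the highest tumor for an epithelial factor, 0.111 CPM per kilobase for Grhl2.

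**Figure D1:**
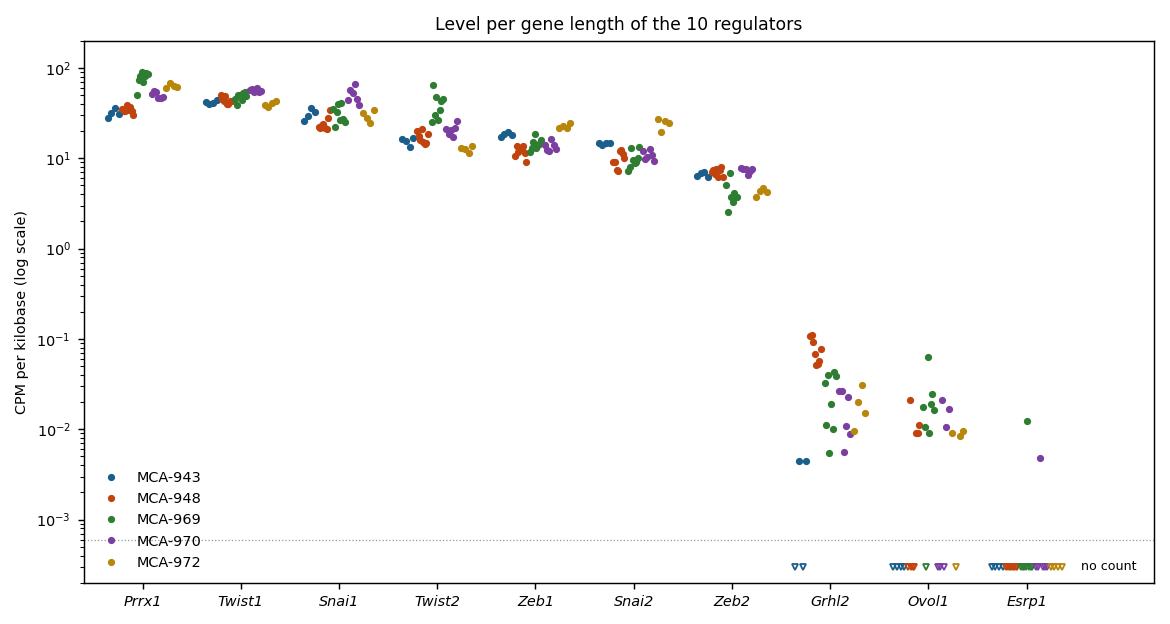
Level of each regulator in each tumor in CPM per kilobase of gene length (log axis), with genes ordered by their mean and tumors coloured by line. Points are tumors and open triangles under the dotted line are tumors with no count; the 7 mesenchymal factors lie between 2.53 and 89.7 CPM per kilobase, and Grhl2, Ovol1 and Esrp1 lie at 0.111 or lower.

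The 5 lines were compared in all 10 pairs, with a gene called at an adjusted p under 0.05 and a log2 fold change of at least 1 in either direction. Among the 5 lines, 5 of the 8 regulators tested were called, namely Grhl2, Prrx1, Snai1, Snai2 and Twist2, against 58.0% of all genes. The other 3, Twist1, Zeb1 and Zeb2, had adjusted p-values under 0.05 but ranges of 0.49, 0.92 and 0.84 on the log2 scale. The median range of the 8 regulators was 1.17 on the log2 scale, beside 1.19 for all genes tested. The share of the variance of log2 CPM that lay between lines ran from 68.3% for Snai1 to 90.8% for Prrx1, beside a median of 75.0% over all genes that passed the filter. In both respects the regulators, with Grhl2 counted, were near the background of these lines. As Grhl2 passed the filter only through its counts in MCA-948, its call and its range of 4.58 are a description and not support.

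Between non-sensitive and sensitive lines, 0 to 3 of the 8 regulators were called in a pair. MCA-943 against MCA-948 gave 1 call (Grhl2), where 29.0% of all genes were called. MCA-943 against MCA-970 also gave 1 (Grhl2), where 27.3% of all genes were called. MCA-943 against MCA-972 gave 2 (Grhl2 and Prrx1), with 25.6% of all genes called. Each of these shares was at or under the background. MCA-969 against MCA-948 gave 3 (Grhl2, Prrx1 and Twist2), with 20.8% of all genes called. MCA-969 against MCA-972 gave 2 (Snai2 and Twist2), with 20.6% of all genes called. MCA-969 against MCA-970 gave 0 by edgeR, DESeq2 and limma-voom, with 21.4% of all genes called, although 5 of the 8 had both unadjusted and adjusted p-values under 0.05 in edgeR. No regulator was called in all 6 of these pairs. Grhl2 passed the filter only through its counts in MCA-948, so its calls, 7 of the 17 in all 10 pairs, describe these counts and are not support for a difference.

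Lines of the same class were compared in the same way. MCA-943 against MCA-969, both non-sensitive, gave 3 calls (Grhl2, Prrx1 and Twist2) with 27.0% of all genes called. In that pair DESeq2 also called Ovol1, which had 0 counts in the 4 MCA-943 tumors and 17 in the 8 MCA-969 tumors. Among the sensitive lines, MCA-948 against MCA-970 gave 2 (Grhl2 and Snai1) with 29.4% of all genes called, and MCA-948 against MCA-972 gave 2 (Grhl2 and Snai2) with 26.8%. MCA-970 against MCA-972 gave 1 (Snai2) with 17.6% of all genes called.

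**Figure D2:**
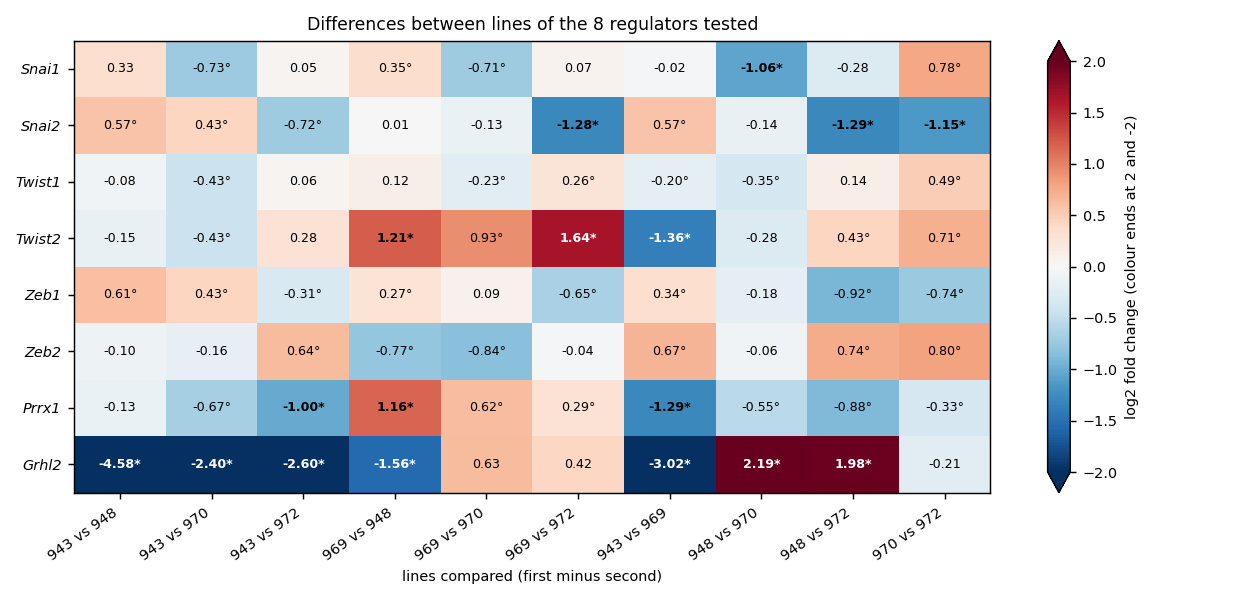
Fitted log2 fold change of each of the 8 regulators tested (rows) in the 10 pairs of lines (columns, first line minus second). An asterisk and bold type mark a call and a small circle an adjusted p under 0.05 with a smaller fold change; Grhl2 has 7 of the 17 calls, and its values against MCA-943 rest on 2 counts in that line and depend on the prior count of the fit.

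Prrx1, a homeobox factor of limb and connective tissue mesenchyme (chr1:163245119-163313710 of GRCm38), was the regulator with the highest level in CPM and the most separated lines. Its 8 MCA-969 tumors ranged from 557 to 993 CPM with a median of 890.0 CPM. Its MCA-972 tumors were at 666, 686, 701 and 748 CPM. Its 6 MCA-970 tumors ranged from 509.5 to 619 CPM with a median of 549 CPM. These 3 lines were above the other two in every tumor. The 8 MCA-948 tumors ranged from 333 to 428 CPM with a median of 374 CPM, and the MCA-943 tumors were at 307, 340.3, 348 and 402 CPM. The means fell in the order MCA-969 (855 ± 142 CPM, SD, n = 8), MCA-972 (700.4 ± 34.8, n = 4), MCA-970 (557 ± 46.6, n = 6), MCA-948 (381 ± 29.5, n = 8) and MCA-943 (349.5 ± 39.5, n = 4). Neighbours in that order differed at an adjusted p under 0.05, except MCA-948 and MCA-943 (log2 fold change 0.13, SE 0.11, adjusted p = 0.2995 by edgeR). Prrx1 was called higher in MCA-969 than in MCA-943, with a log2 fold change of 1.29 in size (SE 0.11, adjusted p = 5.12e-11), and higher than in MCA-948, at 1.16 (SE 0.09, adjusted p = 2.28e-12).

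Some Prrx1 values changed in fits by the run of sample numbers. The second run holds 2 MCA-948 tumors and, of MCA-969, only W-1D and W-2D, which carry the opposite sensitivity label. Run and tumor cannot be told apart there. Within the second run, the log2 fold change of Prrx1 between MCA-969 and MCA-948 was 0.95 (adjusted p = 0.00507). A fit with the run as covariate gave 0.96 (adjusted p = 1.14e-05). Both values were under the threshold on the fold change. In the same fit the step from MCA-972 to MCA-970 in the order was lost, with 0.08 for MCA-970 against MCA-972 (SE 0.15, adjusted p = 0.713) in place of -0.33. The call between MCA-943 and MCA-972, at -1.003 on the log2 scale (SE 0.12), became -0.74 with the run as a covariate, and it also fell under 1 in size without MCA-943 W-2G (-0.96), MCA-943 a-R (-0.99) or MCA-972 a-1 (-0.97).

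Twist2, a basic helix-loop-helix factor of dermal and mesenchymal cells (chr1:91801461-91848028), stood out in MCA-969. The 8 MCA-969 tumors ranged from 80.5 to 206 CPM with a median of 122 CPM. The 6 MCA-970 tumors ranged from 54.2 to 81.5 CPM with a median of 66.3 CPM, and the 8 MCA-948 tumors from 45.2 to 66.3 CPM with a median of 53.3 CPM. The MCA-943 tumors were at 42.4, 49.1, 51.2 and 53.0 CPM, and the MCA-972 tumors at 36.1, 39.9, 41.6 and 43.3 CPM. All MCA-969 tumors were above every tumor of MCA-943, MCA-948 and MCA-972, and they overlapped MCA-970 only at their lowest tumor, W-1D. The highest value was in W-2D. Twist2 was higher in MCA-969 than in MCA-972 by a log2 fold change of 1.64 (SE 0.19, adjusted p = 2.35e-08), than in MCA-943 by 1.36 in size (SE 0.19, adjusted p = 2.96e-07) and than in MCA-948 by 1.21 (SE 0.14, adjusted p = 2.53e-08). Against MCA-970 the log2 fold change was 0.93 (SE 0.16, adjusted p = 8.96e-06), short of the 1 needed for a call, although the gene was called without MCA-969 W-1D, MCA-969 a-1D or MCA-970 a-2G. In tumors of the second run of sample numbers alone, that difference was 1.12 (adjusted p = 0.00817) and MCA-969 exceeded MCA-948 by 1.44 (adjusted p = 0.0181). In that run MCA-969 is W-1D and W-2D alone, its lowest and highest Twist2 tumors. In the first run, MCA-969 exceeded MCA-972 by 1.58 (adjusted p = 1.36e-05). MCA-970 and MCA-948, MCA-948 and MCA-943, and MCA-943 and MCA-972, the other neighbours in the order of means, did not differ at an adjusted p under 0.05.

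Twist1, the paralog of Twist2 and a factor of cranial and limb mesenchyme (chr12:33957671-33959829), was the mesenchymal factor with the narrowest range. Its 30 tumors lay between 60.2 and 95.8 CPM, and its line means between 64.8 ± 3.89 CPM in MCA-972 (n = 4) and 91.0 ± 3.73 CPM in MCA-970 (n = 6). The lowest MCA-970 tumor, at 86.6 CPM, was just under the highest MCA-969 tumor, at 86.9 CPM, and above all tumors of the other 3 lines. MCA-970 was higher than MCA-969 by a log2 fold change of 0.23 in size (SE 0.06, adjusted p = 0.00260). The lower 3 neighbour pairs in the order, MCA-969 to MCA-948, MCA-948 to MCA-943 and MCA-943 to MCA-972, had adjusted p-values of 0.0707, 0.370 and 0.567.

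**Figure D3:**
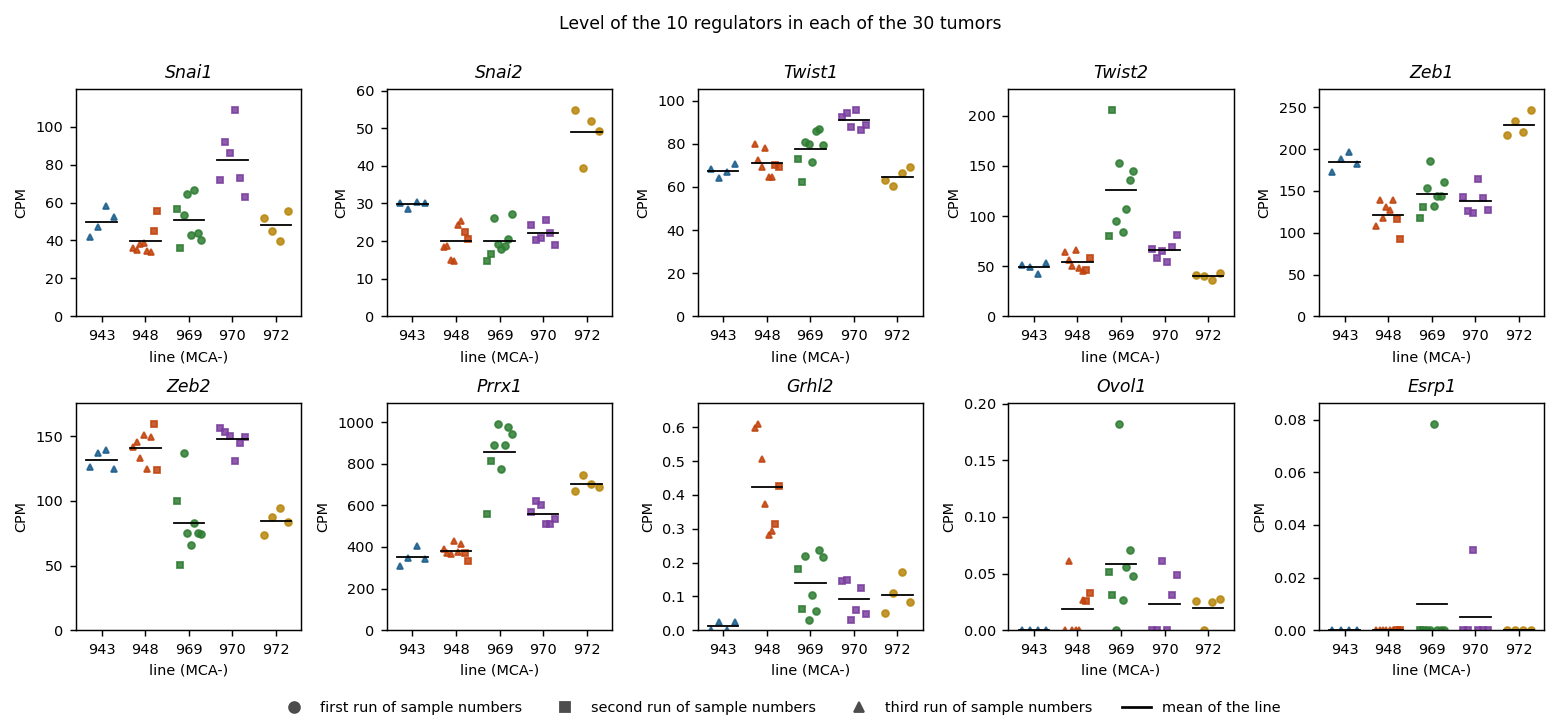
Level of the 10 regulators in each tumor in CPM (linear axes from 0, with a separate scale for each gene), by line, with symbols for the run of sample numbers and a bar at the mean of each line. Twist2 and Prrx1 are highest in MCA-969, Snai2 and Zeb1 in MCA-972 and Snai1 in MCA-970, while Zeb2 is lowest in MCA-969 and MCA-972; Grhl2 does not exceed 0.611 CPM.

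Snai2 (Slug), a zinc finger repressor first known from neural crest migration (chr16:14705852-14709385), was highest in MCA-972, at 39.5, 49.4, 52.0 and 54.9 CPM. The MCA-943 tumors were close together, at 28.6, 30.01, 30.2 and 30.3 CPM. The MCA-970 tumors ranged from 18.99 to 25.7 CPM (median 21.6), the MCA-969 tumors from 14.6 to 27.2 CPM (median 18.9) and the MCA-948 tumors from 14.8 to 25.4 CPM (median 19.7). Every MCA-972 tumor was above all tumors of the other lines, and every MCA-943 tumor was above all tumors of the last 3 lines. MCA-972 exceeded MCA-948 by a log2 fold change of 1.29 in size (SE 0.14, adjusted p = 4.32e-09), MCA-969 by 1.28 (SE 0.14, adjusted p = 1.00e-08), MCA-970 by 1.15 (SE 0.15, adjusted p = 3.87e-07) and MCA-943 by 0.72 (SE 0.17, adjusted p = 0.000630). MCA-970 and MCA-969, and MCA-969 and MCA-948, did not differ at an adjusted p under 0.05. With the run of sample numbers as a covariate, the difference was -1.18 for MCA-969 against MCA-972, which share the first run, but -0.71 for MCA-948 and -0.68 for MCA-970 against MCA-972, which share none, and the last 2 were no longer called. The difference of MCA-943 against MCA-972, which also share no run, was -0.09 in that fit (SE 0.30, adjusted p = 0.840), so the step between these lines was lost. In the same fit Snai2 was called in MCA-943 against MCA-969, at 1.08 (adjusted p = 0.00157).

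Snai1, the founding vertebrate Snail repressor of Cdh1 (chr2:167538195-167542814), was highest in MCA-970, where the 6 tumors ranged from 63.0 to 109 CPM with a median of 79.6 CPM. The MCA-969 tumors ranged from 36.2 to 66.8 CPM (median 48.7) and the MCA-948 tumors from 33.8 to 55.7 CPM (median 37.1). The MCA-943 tumors were at 41.6, 47.3, 52.2 and 58.0 CPM, and the MCA-972 tumors at 39.8, 45.1, 51.8 and 55.6 CPM. MCA-970 thus overlapped MCA-969 alone, and the other 4 lines overlapped one another. Snai1, Twist1 and Zeb2 all had their highest line mean in MCA-970, the line with the highest endothelial markers (Cdh5, a cadherin of endothelial cells, averaged 236 CPM there and at most 49.0 CPM in the mean of another line), and the part of endothelial cells in these levels was not tested. The difference of MCA-948 against MCA-970 was called, at -1.06 (SE 0.14, adjusted p = 1.02e-07). Without MCA-970 a-1D, the highest tumor, it was -0.96, and within the second run of sample numbers it was -0.70 (adjusted p = 0.0310), both under the threshold in size. MCA-970 also exceeded MCA-969, by 0.71 in size (SE 0.14, adjusted p = 7.60e-05), and the other 3 neighbour pairs had adjusted p-values of 0.125 to 0.912. MCA-943 against MCA-970, which share no run, was -0.73 (adjusted p = 0.000558 by edgeR). With the run of sample numbers as a covariate it was -0.25 (SE 0.25, adjusted p = 0.452), so this difference was lost. The differences of MCA-970 from MCA-948, MCA-969 and MCA-972 kept an adjusted p under 0.05 in that fit.

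The Zeb factors, large repressors with zinc fingers and a homeodomain, ordered the lines differently. Zeb1 (chr18:5591860-5775467) was highest in MCA-972, at 216, 221, 233 and 247 CPM, and next in MCA-943, at 173, 183, 188 and 196 CPM. The MCA-969 tumors ranged from 118 to 185 CPM (median 144), the MCA-970 tumors from 123 to 164 CPM (median 134) and the MCA-948 tumors from 92.3 to 139 CPM (median 122). Every MCA-972 tumor was above all other tumors. The largest Zeb1 difference, MCA-948 against MCA-972, was -0.92 on the log2 scale (SE 0.10, adjusted p = 4.55e-09). MCA-969 and MCA-970, and MCA-970 and MCA-948, had adjusted p-values of 0.418 and 0.0785. With the run of sample numbers as a covariate in edgeR, the upper steps of Zeb1 no longer had an adjusted p under 0.05. MCA-943 against MCA-972 was -0.29 (SE 0.19, adjusted p = 0.257) and MCA-943 against MCA-969 was 0.29 (SE 0.17, adjusted p = 0.183). MCA-948 against MCA-970 was -0.40 in that fit (SE 0.12, adjusted p = 0.00677).

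Zeb2 (chr2:44983632-45117395), by contrast, was lowest in MCA-969 and MCA-972. Its 8 MCA-969 tumors ranged from 50.4 CPM in W-2D to 137 CPM in W-2G with a median of 74.9 CPM, and its MCA-972 tumors were at 73.7, 83.4, 87.6 and 94.5 CPM. The MCA-943 tumors were at 125, 126, 137 and 139 CPM, the MCA-948 tumors ranged from 124 to 160.0 CPM (median 144) and the MCA-970 tumors from 131 to 157 CPM (median 150.1). Except for W-2G, every MCA-969 and MCA-972 tumor was below every tumor of the other 3 lines. MCA-969 against MCA-970 differed by -0.84 (SE 0.13, adjusted p = 2.20e-06). Within the second run of sample numbers, where MCA-969 is W-1D and W-2D alone, the difference was -0.96 (adjusted p = 0.00699). MCA-943 against MCA-972, which share no run, was 0.64 (SE 0.17, adjusted p = 0.00207 by edgeR). With the run as a covariate it was 0.82 (SE 0.33), and its adjusted p of 0.0548 was no longer under 0.05. MCA-969 and MCA-972 did not differ at an adjusted p under 0.05 (0.850), and neither did MCA-970, MCA-948 and MCA-943 as neighbours (0.668 and 0.575). Zeb2 is also expressed by macrophages and NK cells. The summed leukocyte markers were lowest in MCA-969, with a median of 45.5 CPM against 66.6 to 122 CPM in the other lines, and the part of leukocytes in the Zeb2 differences between lines was not tested. The Zeb2 locus also overlaps an antisense gene, Zeb2os, and Twist2, Zeb1, Zeb2 and Prrx1 each overlap at least 1 other annotated gene on their own strand, so with no strand setting given for the counting, reads of such neighbours cannot be told apart.

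Grhl2, a grainyhead factor that maintains epithelial junctions (chr15:37233036-37363569), was the only epithelial regulator to pass the filter, and it did so through MCA-948. Its 8 MCA-948 tumors held 11 to 24 counts each, or 0.281 to 0.611 CPM with a median of 0.399 CPM. The other lines held 1 to 10 counts per tumor in MCA-969, 1 to 5 in MCA-970, 2 to 7 in MCA-972 and 0 or 1 in MCA-943. The MCA-948 tumors were above all others, and none reached 1 CPM. Because the gene entered the test only through its level in MCA-948, its fitted p-values there are not used as evidence, and the levels are given as a description. The ratio of pooled counts of MCA-948 was 2.91 over MCA-969, with an exact 95% interval of 2.04 to 4.21, 3.98 over MCA-972 (2.36 to 7.17) and 4.69 over MCA-970 (2.85 to 8.17). With the run of sample numbers as a covariate, Grhl2 was no longer called in MCA-948 against MCA-972 (2.01 on the log2 scale, adjusted p = 0.0744), in MCA-969 against MCA-948 (-1.53, adjusted p = 0.0998) or in MCA-943 against MCA-972 (-2.63, adjusted p = 0.0761). With 2 counts in all 4 tumors, MCA-943 gives only a ratio of pooled counts, 28.8 for MCA-948 over MCA-943 (7.80 to 240.3). These intervals cover counting error only. The same ratio over MCA-943 was 9.90 for MCA-969 (2.58 to 84.4), 7.24 for MCA-972 (1.70 to 64.9) and 6.14 for MCA-970 (1.47 to 54.6). MCA-969, MCA-972 and MCA-970 did not differ from one another at an adjusted p under 0.05.

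Ovol1, a zinc finger factor of epidermal differentiation (chr19:5549136-5560646), had 30 counts in all tumors together and 0 counts in 13 of them. Its highest tumor was MCA-969 W-R with 6 counts (0.183 CPM), and 17 of the 30 counts were in MCA-969. Esrp1 (chr4:11331933-11386783) had 4 counts in all, 3 of them in MCA-969 a-1D and 1 in MCA-970 W-R, and 0 in the other 28 tumors. The tumor with 3 counts, a-1D, is the one with the highest Krt5 and Krt14, and the part of keratinocytes in its Esrp1 counts was not tested. A count of 0 allows up to 3 counts, which averaged 0.0792 CPM per tumor in MCA-972 to 0.0907 CPM in MCA-970. Neither gene was tested between lines in edgeR.

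Sensitivity to NK1.1+ cells was set against the regulators over the 5 line means, with the 2 non-sensitive lines against the 3 sensitive lines. The exact permutation test has 10 splits, so its two-sided p cannot go below 0.1. For none of the 10 regulators did the line means of the classes separate. The largest difference among the mesenchymal factors was that of Twist2, with a mean of line means of 6.26 log2 CPM in the non-sensitive and 5.70 in the sensitive lines (difference 0.55, exact p = 0.5), and it rested on MCA-969, since MCA-943 was below 2 of the sensitive lines. Zeb2 differed by -0.24 (exact p = 0.5), and the p-values of all 10 genes lay between 0.5 and 1 on the log2 scale.

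The tumor titles carry the letter W or a, whose meaning the labels do not give. Over 26 tumors of the 4 lines with both letters, 0 of 8 regulators were called between them by edgeR or DESeq2, where 0.230% of all genes were called. Snai2 was the only regulator with an unadjusted p under 0.05 (log2 fold change 0.21 for a over W, SE 0.09, adjusted p = 0.607). No regulator had a letter difference that changed between lines by the interaction test, with none under an unadjusted p of 0.05, where 0.0181% of all genes were called.

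Within lines, 24 relations were computed in MCA-948, MCA-969 and MCA-970, 8 in each, between paralogs, opposing factors and cell type scores, and none had an adjusted permutation p under 0.05. Those of Grhl2, with Zeb1 and with the keratinocyte score, cannot decide whether there is a relation. Their median Grhl2 counts were only 13.5, 5.5 and 3 per tumor in MCA-948, MCA-969 and MCA-970. The strongest was between Twist1 and Twist2 in MCA-948 (n = 8, Pearson's r = 0.86, exact permutation p = 0.00694, adjusted 0.167, and Spearman's rho = 0.69, exact permutation p = 0.0694, adjusted 1). Without the 2 tumors farthest from the median of Twist2, r was 0.58. For the same pair r was -0.23 in MCA-969 and -0.72 in MCA-970. Zeb2 and the leukocyte score had r of 0.33, -0.31 and 0.58 in MCA-948, MCA-969 and MCA-970, with exact permutation p-values of 0.423, 0.457 and 0.210. Over all 30 tumors, as a description of tumors that share lines and runs, the most opposite pair of regulators was Zeb2 and Prrx1 (r = -0.69) and the most alike were Snai2 and Zeb1 (r = 0.82), Snai1 and Twist1 (r = 0.68) and Twist2 and Prrx1 (r = 0.62).

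The genes that these factors act on were taken as lists. All 20 mesenchymal effectors passed the filter, and 19 of them (20 in MCA-969) reached 1 CPM in each line. They were called among the 5 lines in 20 of 20 cases, beside 58.0% of all genes. Their median range was 2.68 on the log2 scale, beside 1.19 for all genes. Vim, the intermediate filament of mesenchymal cells, had line means of 3513 ± 448 CPM in MCA-970 (n = 6) to 7747 ± 353 CPM in MCA-943 (n = 4). Cdh2 (N-cadherin) was at 33.2 ± 2.00 CPM in MCA-943 and at 81.3 to 99.4 CPM in the other lines. MCA-948 had the lowest median level of the list. There, 14 of 20 effectors were called lower than in MCA-970 and 0 higher (29.4% of all genes called in either direction), and 14 lower and 1 higher than in MCA-972 (26.8%). Against MCA-943, 15 were called lower and 1 higher (29.0%), and against MCA-969, 7 lower and 0 higher (20.8%). The widest ranges were those of Cdh11, a mesenchymal cadherin (8.41 ± 6.45 CPM in MCA-948, 172 to 579 CPM elsewhere), Acta2, smooth muscle actin (16.5 ± 9.81 CPM in MCA-948, 109 to 640.0 CPM elsewhere), and Lum, a collagen-binding proteoglycan. Lum was at 26.2 ± 15.04 CPM in MCA-948, 32.1 ± 14.6 CPM in MCA-943 and 841 ± 106 CPM in MCA-972. For Lum, MCA-943 and MCA-948 did not differ at an adjusted p under 0.05 (0.572 by edgeR). Of the regulators, Snai1, Snai2 and Zeb1 had their lowest line means in MCA-948, while Twist1, Twist2, Zeb2 and Prrx1 there were within the range of the other lines. None of the 3 lowest means differed from the next line at an adjusted p under 0.05 by edgeR. The values were 0.125 for Snai1 (MCA-972), 0.961 for Snai2 (MCA-969) and 0.0785 for Zeb1 (MCA-970).

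Of the 24 epithelial effectors, 17 passed the filter, and 3 to 6 reached 1 CPM in a line, except in MCA-969, where 10 did. The median level of the list was 0.169 CPM per kilobase in MCA-969 and 0.0428 to 0.0768 in the other lines, beside 139.9 and 47.3 to 341 CPM per kilobase for the mesenchymal effectors. Of the 17 tested, 11 were called higher in MCA-969 than in MCA-948 and 0 lower (20.8% of all genes called in either direction), and 12 higher and 2 lower than in MCA-970 (21.4%). Against MCA-972, 12 were called higher in MCA-969 and 3 lower (20.6%), and against MCA-943, 11 higher and 4 lower (27.0%). Since 7 effectors were not tested and others may have passed the filter only through the line where they are high, these counts are a description. Krt8, a keratin of simple epithelia, was at 385 ± 118 CPM in MCA-969 (lowest 209, highest 625, n = 8) and had a mean of at most 3.51 CPM in the other lines. Its partner keratin Krt18 was at 255 ± 129 CPM in MCA-969, at 91.9 ± 26.9 CPM in MCA-948 and at 0.636 to 7.64 CPM elsewhere. The desmosomal gene Dsp was at 5.42 ± 3.26 CPM and Epcam, an epithelial adhesion molecule, at 4.83 ± 2.498 CPM in MCA-969, with means under 1.5 CPM in every other line. Cdh1 (E-cadherin), in contrast, was highest in MCA-943, at 4.57 ± 1.51 CPM, and at 0.318 to 0.890 CPM elsewhere. In MCA-969, the line with the highest Krt8 and Krt18, Snai1 averaged 50.6 CPM, Snai2 20.1 CPM, Zeb1 146 CPM and Prrx1 855 CPM. Twist1 averaged 77.5 CPM and Twist2 126 CPM there. Zeb2 had its lowest line mean in MCA-969, at 82.7 CPM. Grhl2, Ovol1 and Esrp1 were at 0.138, 0.0582 and 0.00982 CPM. A relation of the regulators to the keratins was not tested. The summed keratinocyte markers were also highest in MCA-969, with 36.3 to 138 CPM against at most 47.2 CPM in a tumor of the other lines, led by Lgals7 at 70.8 CPM, and 3 of 14 markers reached 1 CPM there. Their part in the epithelial levels was not tested.

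**Figure D4:**
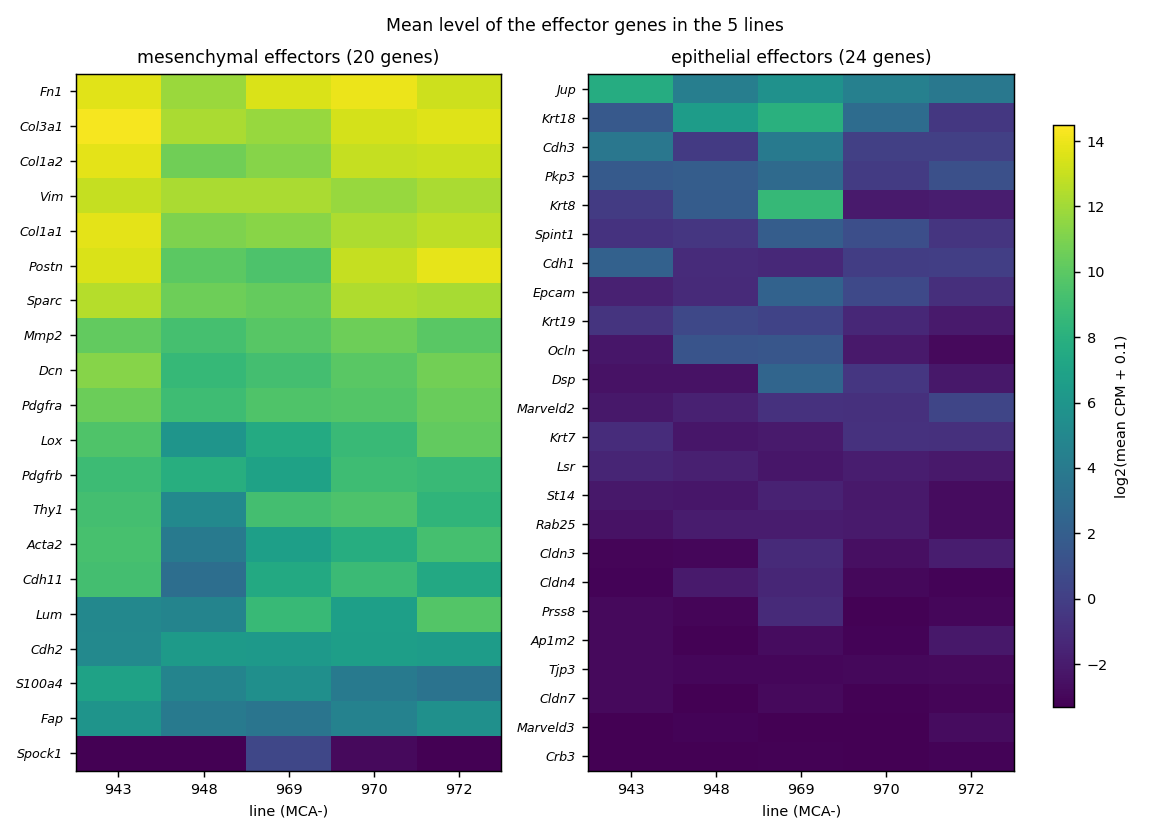
Mean level of 20 mesenchymal effectors (left) and 24 epithelial effectors (right) in the 5 lines, as log2 of the mean CPM plus 0.1, with genes ordered by their mean over lines. All mesenchymal effectors but Spock1 reach 1 CPM in every line, with Cdh11 and Acta2 lowest in MCA-948, while among the mostly dark epithelial effectors Krt8 and Krt18 are brightest in MCA-969 and Cdh1 is brightest in MCA-943, at 4.57 CPM.

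Because the Snail and Zeb repressors bind the E-box CAGGTG, which reads CACCTG on the other strand, the 250 bases before the start of transcription were searched for it on both strands. RefSeq promoters (GRCm38.p6) were matched for 7 of 13 genes, the regulators with Cdh1, Epcam and Krt8. The E-box was in 17.2% of 32851 promoters. It was present in the windows of Epcam, Krt8 and Snai1, and these letters were not in those of Twist1, Twist2, Prrx1 and Zeb2. The 3 windows are shown 5′ to 3′ on the strand of the gene, with each E-box in capitals. They include a repressor and 2 epithelial genes with unequal levels between lines. All lines expressed the Snail and Zeb repressors, though at unequal levels. The window of Epcam is chr17:87635729-87635978 on the forward strand, with E-boxes starting 187 and 19 bases before the start. That of Krt8 is chr15:102004343-102004592 on the reverse strand, with an E-box 111 bases before the start, and that of Snai1 is chr2:167537945-167538194 on the forward strand, with an E-box 126 bases before the start. A match describes the letters and does not show binding.
Epcam: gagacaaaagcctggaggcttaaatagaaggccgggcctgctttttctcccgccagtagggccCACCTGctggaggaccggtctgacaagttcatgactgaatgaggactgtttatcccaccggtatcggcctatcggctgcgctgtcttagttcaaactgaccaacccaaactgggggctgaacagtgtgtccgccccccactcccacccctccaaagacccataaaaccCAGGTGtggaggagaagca
Krt8: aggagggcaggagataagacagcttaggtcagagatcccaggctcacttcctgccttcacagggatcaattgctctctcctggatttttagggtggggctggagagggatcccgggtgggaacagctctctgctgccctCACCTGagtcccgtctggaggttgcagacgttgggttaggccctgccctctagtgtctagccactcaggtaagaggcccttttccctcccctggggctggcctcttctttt
Snai1: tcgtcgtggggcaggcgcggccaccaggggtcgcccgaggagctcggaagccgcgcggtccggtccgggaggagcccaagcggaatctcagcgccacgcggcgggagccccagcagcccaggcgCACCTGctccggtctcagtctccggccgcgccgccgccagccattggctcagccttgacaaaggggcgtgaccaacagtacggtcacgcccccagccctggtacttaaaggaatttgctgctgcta

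Among 23 paralogs and related regulators, 15 passed the filter and 11 of these were called among the 5 lines, beside 58.0% of all genes. In this list and the lists that follow, some genes may have passed the filter only through the line where they are high. These counts of calls are therefore a description. The Snail paralog Snai3 was at 0.808 ± 0.396 CPM in MCA-969 (n = 8) and at most 0.0630 CPM in the mean of any other line. The homeobox gene Msx1 was lowest in MCA-969, at 0.614 ± 0.495 CPM, and at 1.36 to 8.32 CPM elsewhere, while Msx2 was highest in MCA-972, at 5.73 ± 1.21 CPM. The epithelial paralogs Grhl1, Grhl3, Ovol2 and Ovol3 did not pass the filter, nor did Ehf, Elf5, Foxa1 and Gsc.

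The partners and corepressors, which include E-proteins, Id proteins and chromatin cofactors, all passed the filter, and 10 of 23 were called among the lines, beside 58.0% of all genes. Their median range was 0.90 on the log2 scale, beside 1.19 for all genes. Hand2, a helix-loop-helix partner of the Twist family, was at 5.99 ± 1.03 CPM in MCA-970 and at most 0.359 CPM in the mean of another line. Id3, an inhibitor of helix-loop-helix factors, was at 45.2 ± 18.9 CPM in MCA-948 and at 96.2 to 169 CPM elsewhere, and Id4, another of these inhibitors, was at 0.935 ± 0.313 CPM in MCA-943 and at 4.48 ± 1.23 CPM in MCA-972. MCA-970, with the highest Hand2, was also the line with the highest Twist1, and a relation between these genes was not tested.

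The 30 inducers of the regulators, ligands and receptors such as those of the TGF-β, BMP and HGF pathways, all passed the filter, and 21 were called among the lines, beside 58.0% of all genes. Met, the receptor for HGF, was at 4148 ± 719 CPM in MCA-948 (n = 8) and at 89.2 to 350.2 CPM in the means of the other lines. The mean of 350.2 CPM, in MCA-969, rested on a single tumor at 1626 CPM, with the lowest at 73.0 CPM. Bmp4 was highest in MCA-972, at 17.2 ± 6.11 CPM, and lowest in MCA-943, at 0.147 ± 0.0841 CPM, and Bmp7 was at 14.04 ± 9.14 CPM in MCA-969 and at most 2.52 CPM in another line's mean. Met was highest in MCA-948, the line with the highest Grhl2 and the lowest mean of Zeb1. Bmp7 was highest in MCA-969, the line with the highest Twist2 and Prrx1. In MCA-948, Grhl2 did not exceed 0.611 CPM, and Zeb1 did not differ from MCA-970 at an adjusted p under 0.05 (0.0785 by edgeR). The lines are few, so many genes share a highest line. A relation of Met or Bmp7 to these regulators was not tested.

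The 8 transcripts whose splicing Esrp1 controls all passed the filter, and 3 were called among the lines, beside 58.0% of all genes. Fgfr2, whose epithelial and mesenchymal receptor forms are set by Esrp1, was at 9.37 ± 2.64 CPM in MCA-969, 8.90 ± 1.59 CPM in MCA-972, 2.23 ± 1.31 CPM in MCA-970, 2.21 ± 0.592 CPM in MCA-943 and 0.0747 ± 0.0836 CPM in MCA-948. Enah, an actin regulator, was at 54.0 ± 10.1 CPM in MCA-943 and 205 ± 22.4 CPM in MCA-972, and Scrib, a polarity protein, was lowest in MCA-970, at 43.6 ± 4.30 CPM, and highest in MCA-972, at 90.3 ± 5.88 CPM. Counts per gene do not show which splice form was made.

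The genes whose log2 CPM was most like that of each regulator over the 30 tumors, by Pearson's r among all genes that passed the filter, were Aox3 (r = 0.94) and Chst13 (0.93) for Prrx1, Comtd1 (0.92) and Gm30692 (0.91) for Twist2, and Gm32591 (0.84) and Gm7173 (0.83) for Twist1. For Zeb2 they were Trpc1 and Gna13 (both 0.91), for Zeb1 Pcdhga9 and Trim2 (both 0.89), for Snai2 Tg and Gm28187 (both 0.89), for Snai1 Znrf1 and Olfml3 (both 0.88), and for Grhl2 Casc3 (0.89) and Pitrm1 (0.88). None of these genes was another regulator or a gene of the lists. The 30 tumors share 5 lines, so any gene with the same order of lines has a high r.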

How the data were processed

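Gene expression was measured by RNA-seq in 30 mouse tumors of 5 lines. Per the labels and the methods, the authors aligned reads to GRCm38 with STAR 2.5.3a, removed duplicates by molecular identifiers (as the file header names show), and deposited raw counts per gene from featureCounts (1.5.2 in the processing notes, another version in the methods) with the counted length of each gene in bases. The annotation and strand setting are not given in the sources used here. Hematopoietic cells had been depleted with CD45 beads before RNA extraction.

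From the counts, genes were named with GENCODE mouse release 21 (48058 of 48440). Genes were filtered with filterByExpr by line and fitted over all 30 tumors with edgeR 4.0.16 (R 4.3.3; TMM, robust quasi-likelihood, biological coefficient of variation 0.221) and Benjamini-Hochberg adjustment over 16862 genes. A call required an adjusted p under 0.05 and a log2 fold change of at least 1. Levels are CPM, log2 CPM with a prior count of 2, or CPM per kilobase. The scripts were tested on simulated data. Alternatives were DESeq2 1.42.0, limma-voom (limma 3.58.1), DESeq2 size factors, other filters and thresholds, separate fits, covariates for the run and index of the sample numbers, the leukocyte score, the title code as a block, and leaving out each tumor.

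The counts per tumor ran from 27745104 to 46537062, and intervals and limits of 0 counts cover counting error only. Labels name the tumors as separate samples of a line but not which mice they came from, so p-values measure the spread between these samples. No 2 tumors of a line were duplicates: over 83 pairs, chi-square per gene was at least 14.5. The members and lists were chosen with earlier results of these data known. Beside the regulators, the text names Cdh1, Epcam, Cdh2 and Vim, the 3 called genes of each list with the widest range of line means, and the 2 genes most like each regulator. Lists of cell type markers for pericytes and smooth muscle, skeletal muscle, adipocytes, Schwann cells and mesothelial cells gave highest summed levels in a tumor of 1073, 68.4, 55.1, 161 and 692 CPM, the last led by Krt8.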

Additional observations from a re-analysis of the deposited data

Results flagged for a closer look

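Among 36 sets of a regulator's values in a line, 2 held a tumor far from the others of its line, where chance gives about 1 in 20. Snai2 in MCA-943 a-1D was at 28.6 CPM, below the other 3 tumors, which lay between 30.01 and 30.3 CPM. Prrx1 in MCA-969 W-1D was at 557 CPM, below the other 7 tumors of the line. W-1D is 1 of the 2 MCA-969 tumors with a sensitivity label opposite to that of the line, and without both of these tumors all 17 calls of the regulators held.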

How the results depend on the processing

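All 17 calls of a regulator between 2 lines held with DESeq2, limma-voom, DESeq2 size factors, no filter, the leukocyte score as a covariate, and without both MCA-969 tumors with the opposite sensitivity label, and no alternative reversed a direction. With no threshold on the fold change, the regulators passing were 3 for MCA-943 against MCA-948, 7 against MCA-970, 5 against MCA-972 and 7 against MCA-969, 6 for MCA-969 over MCA-948, 5 against MCA-970 and 5 against MCA-972, 4 for MCA-948 against MCA-970 and 6 against MCA-972, 7 for MCA-970 against MCA-972, and 8 among the 5 lines. With a log2 threshold of 2 they were 1 for MCA-943 against MCA-972, 1 against MCA-969, 1 for MCA-948 against MCA-970, 1 among the 5 lines, and 0 for MCA-969 over MCA-948 and MCA-972, MCA-948 against MCA-972 and MCA-970 against MCA-972. Every call at that threshold was of Grhl2. The share of all genes passing is not given for the settings of this section. Its counts are therefore a description and are not read as a result about the regulators. A filter at a mean of 1 CPM leaves out Grhl2, so its call was absent from every pair that had it, and the other 10 calls held. Among these pairs, it gave 0 for MCA-943 against MCA-948 and MCA-970, and 1 for MCA-943 against MCA-972, MCA-948 against MCA-970 and MCA-948 against MCA-972. Separate fits gave 0 for MCA-943 against MCA-970 and 1 for MCA-943 against MCA-972, where Grhl2 did not pass the filter. With the run of sample numbers as a covariate, 9 of 17 calls held, with 0 for MCA-943 against MCA-972, 1 for MCA-969 over MCA-948, 1 for MCA-969 over MCA-970, 1 for MCA-948 against MCA-970, 0 for MCA-948 against MCA-972 and 0 for MCA-970 against MCA-972. In that fit Snai2 was also called in MCA-943 against MCA-969, beside the calls already made there. The second run alone gave 1 for MCA-969 over MCA-948, 1 for MCA-969 over MCA-970 and 1 for MCA-948 against MCA-970, and the index set as a covariate gave 1 for MCA-948 against MCA-970. The cause was not tested. Leaving out each tumor gave 1 to 2 for MCA-943 against MCA-972, 0 to 1 for MCA-969 over MCA-970, 1 to 2 for MCA-948 against MCA-970 and 4 to 5 among the 5 lines.

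The codes in the titles recur between lines but did not pair the tumors: over 29 pairs with the same code, deviations from the line means correlated at -0.43 to 0.41 (median 0.02), and 3 of 27 tumors were closest to their own code. With the code as a replicate block, 14 of 17 calls held, with 1 for MCA-943 against MCA-972, 1 for MCA-948 against MCA-972 and 0 for MCA-970 against MCA-972. Depth limits Grhl2, Ovol1 and Esrp1, whose levels rest on a few counts per tumor.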
